A study of Drosophila melanogaster and Drosophila simulans and Drosophila yakuba with 4 samples.

Results

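Nuclear receptors outside the ecdysone cascade were described in whole white prepupae of D. melanogaster, the animals at the start of pupariation. The group was chosen by name, from known roles in metabolism, the nervous system and patterning, and holds 10 genes (ERR, Hnf4, Hr38, Hr51, Hr83, Hr96, svp, tll, kni and knrl) of the 15492 genes listed in the table of this library. The rule used no expression level, though the members were chosen with earlier results of these data known. The study collected RNA from white prepupae of D. melanogaster and of 3 further species (D. yakuba, D. pseudoobscura and D. simulans), with 1 library of whole animals each and no treatment named. The sources used here do not state strain, sex or number of animals. The library titled D. melanogaster carries D. yakuba in its organism field, and the title was followed. Of its 15492 identifiers 14872 are in a D. melanogaster gene table. That shows which annotation was used and cannot settle the species of the animals. The receptors were described in this library alone, and the other species were not analysed here. There were therefore no replicates, no test between groups was possible and no p-value is given.

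Nuclear receptors are transcription factors that bind DNA through a pair of zinc fingers, and many of them are switched by a small lipophilic ligand. ERR, Hnf4, Hr96 and Hr38 are known in flies for control of sugar, lipid, sterol and glycogen metabolism. Seven-up (svp), tailless (tll), Hr51 and Hr83 are the fly relatives of vertebrate receptors of the nervous system and eye. Knirps (kni) and knirps-related (knrl) belong to a family that kept the zinc fingers and lacks the ligand-binding domain, and they pattern the embryo, the tracheae and the wing veins. The ecdysone cascade, a different set of receptors, drives the onset of metamorphosis at this stage.

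The level of each gene was deposited as FPKM, the number of fragments divided by transcript length and by library size, which allows genes of different lengths to be compared within the library. Cufflinks, the program that made the values, also gave a lower and an upper bound, which lie 2 standard errors from the FPKM and cover counting and the assignment of reads to transcripts, not variation between animals. Solved for reads, the bounds of all genes with the Cufflinks status OK together gave 12036776 effective reads. The distance from the value to its bound had a median of 12.4% of the value over genes of FPKM 1 and above. Markers of the tissues in which these receptors act were mostly present in the library. Of 6 neuronal markers 6 were at FPKM 1 or more (median 7.78), as were 6 of 6 of fat body (median 4493), 6 of 6 of midgut (median 42.7), 4 of 4 measured of muscle (median 21.2) and 3 of 3 measured of trachea (median 45.3). Of 4 oenocyte markers 2 were, with eloF at 0 and FASN2 at 0.0650. The share of all listed genes at FPKM 1 or more was 74.5%. Levels within a set varied widely. Midgut markers ran from Try29F at 1.58 to Jon65Aiv at 2508, and tracheal markers from trh at 2.62 to verm at 69.4. In whole animals, fewer cells of a type and less RNA per cell cannot be told apart.

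The receptors covered a wide range, from ERR at an FPKM of 13.4 to Hr83 at 0. Of the 10 genes 7 were at FPKM 1 or more, a share close to the 74.5% of all genes listed. By other limits, 9 were at FPKM 0.1 or more, against 86.8% of all genes, 4 were at FPKM 5 or more, against 55.5%, and 7 had a lower bound of FPKM 1 or more, against 69.4%. The median of the 10 receptors was 1.93 (1.39 to 2.49 at the medians of the bounds), against 6.90 over all listed genes, and 4 of the 10 stood above that median. All 10 had the Cufflinks status OK. The plot of levels by role shows an upper set of 4 genes, a middle set of 4 between 0.927 and 2.31 and a low end of Hr38 and Hr83.

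**Figure D1:**
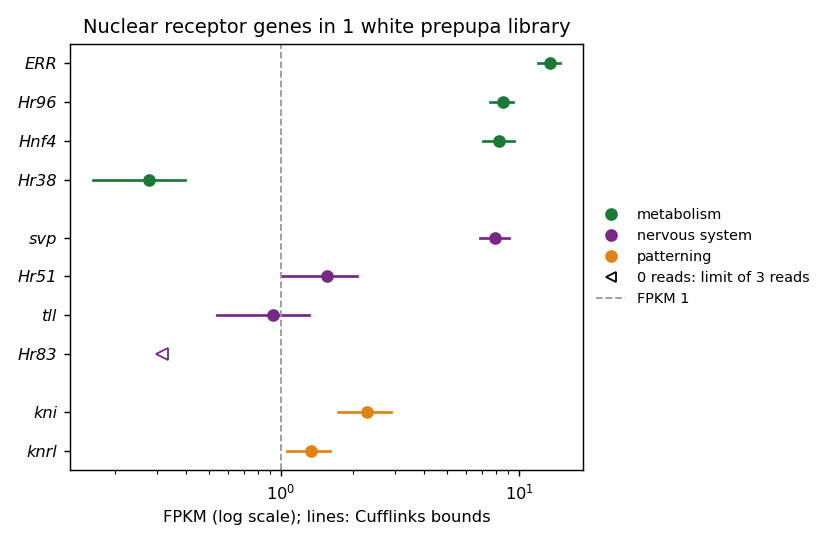
FPKM of the 10 receptors on a log axis, grouped by role, in the 1 D. melanogaster library. Points are the deposited values and lines the Cufflinks bounds. The open triangle of Hr83 marks the FPKM of 0.316 that a count of 0 allows. ERR, Hr96, Hnf4 and svp lie between 7.96 and 13.4, and Hr38 lies at 0.280.

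The metabolic receptors held the top of the order, with the exception of Hr38. ERR, the fly estrogen-related receptor, which in larvae turns on glycolysis and lactate production, had an FPKM of 13.4 (bounds 11.98 and 14.87). Hr96, a receptor of xenobiotic response and of triglyceride and cholesterol balance, had 8.52 (7.58 and 9.46). Hnf4, which in flies promotes the burning of stored fat and is known from fat body, midgut and Malpighian tubules, had 8.27 (7.03 and 9.51). These 3 genes together made up 67.8% of the summed FPKM of the 10 receptors. ERR stood at percentile 62.3 of all listed genes, Hr96 at percentile 53.8 and Hnf4 at percentile 53.3, so each lay in the upper part of the library without being highly expressed. Hr38, the relative of the vertebrate NR4A receptors, with roles in cuticle formation and glycogen storage, stood at 0.280 (0.162 and 0.397) and at percentile 17.1.

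In dm3, the genome build of the table, ERR lies on chromosome 3L from 8176461 to 8179771 and Hnf4 on 2L from 8687281 to 8709038. Hr96 lies on 3R from 20850957 to 20855073 and Hr38 on 2L from 20683462 to 20714589. The newer BDGP6 annotation, used only for strand and gene structure, places Hr96 on the plus strand and the other metabolic receptors on the minus strand. Hr38 has the longest exonic sequence of the 10 genes, 7704 bp, and ERR has 2223 bp in its annotated exons. The low FPKM of Hr38 therefore rests on a long target. Its bounds lay 41.9% away from the value, against 10.7% for ERR.

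All 14 measured genes of glycolysis, the pentose phosphate entry and lactate production, tied to ERR in larvae, reached FPKM 1, and their median was 28.1. The glyceraldehyde-3-phosphate dehydrogenase genes Gapdh2 at 369.1 and Gapdh1 at 93.0 stood highest, and these near copies may share reads. Pfk, phosphofructokinase, at 9.81 and Zw, glucose-6-phosphate dehydrogenase, at 5.001 stood lowest. ImpL3, lactate dehydrogenase, was at 11.6 (9.45 and 13.8), with bounds that overlapped those of ERR itself, and was singled out after its value was seen. All 13 measured genes of fatty acid oxidation, tied to Hnf4, reached FPKM 1, and their median was 25.4. The thiolase gene yip2 at 197.2 and the triglyceride lipase gene bmm at 61.8 led this list. The carnitine transferase gene CPT2 at 10.3 and CG17544 at 2.02 closed it. Both lists had a larger share at FPKM 1 or more than the 74.5% of all genes, and both are made of genes that most cells use.

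Of 21 genes of sterol uptake and detoxification, tied to Hr96, 20 reached FPKM 1, against 74.5% of all genes, and the median was 13.6. Npc2a at 1182 and Npc2e at 401.5, which encode sterol-binding proteins of the NPC2 family, stood highest. The cytochrome P450 genes Cyp6w1 at 1.07 and Cyp6a2 at 0.512 stood lowest. The intestinal lipase gene mag (magro), a known target of Hr96, was at 24.8 (22.5 and 27.1), and Npc1b, which is needed for sterol absorption in the gut, was at 2.83 (2.33 and 3.33). Both were singled out after their values were seen. Of 6 measured genes of glycogen and cuticle, tied to Hr38, 5 reached FPKM 1, a share of 83.3% beside the 74.5% of all genes, and the median was 54.2. The glycogen genes GlyS and GlyP, also on this list, were not matched and so have no value here. Tyrosine hydroxylase (ple) at 1784 and UGP, which makes the sugar donor for glycogen, at 139.8 led. The glycogen branching enzyme gene AGBE was at 4.32. The adult cuticle gene Acp65Aa, which depends on Hr38 in the pupa, was at 0. Hr38 at 0.280 thus stood below every measured gene of its list but Acp65Aa.

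**Figure D2:**
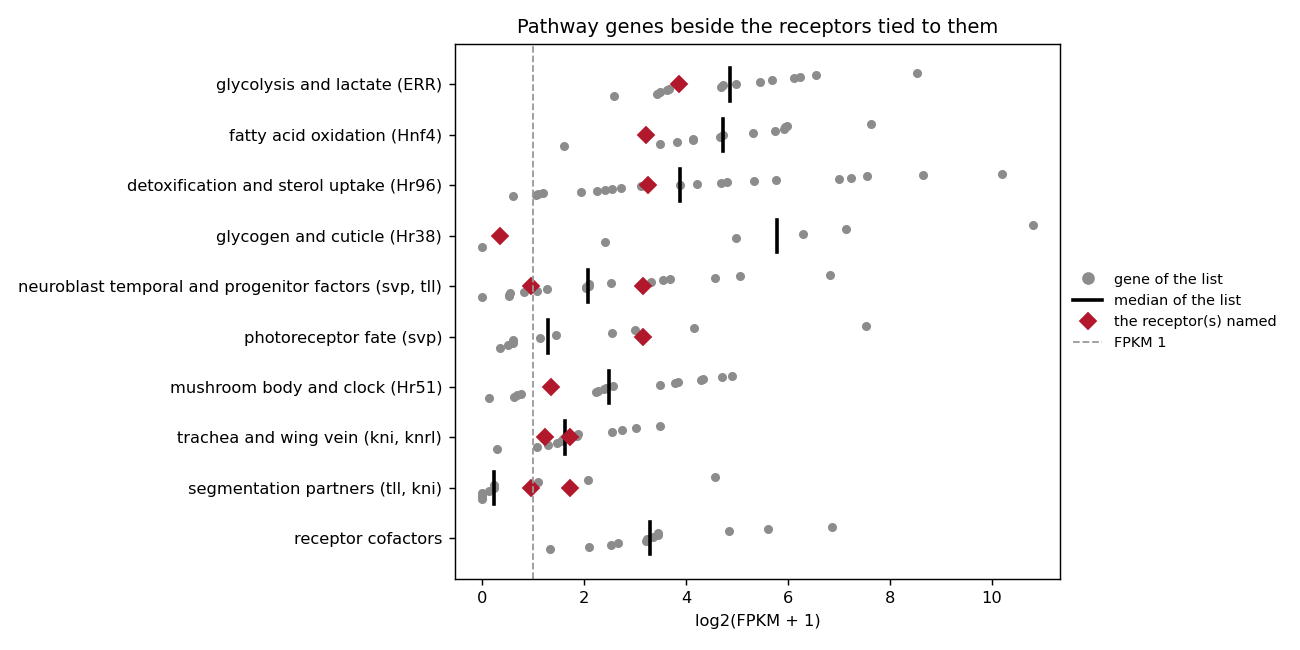
Levels of the pathway genes as log2(FPKM + 1) in the D. melanogaster library, 1 row per list. Gray points are genes, black bars the medians of the lists and red diamonds the receptors named in the row. ERR at 3.85 and Hnf4 at 3.21 lie left of the bars of their lists, while svp at 3.16 lies right of the bars of both of its lists.

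Of the receptors of the nervous system, svp was the highest. Svp, the COUP transcription factor of the fly, acts in photoreceptor fate, in the timing of neuroblasts and in the heart and fat body, and had an FPKM of 7.96 (6.83 and 9.08), at percentile 52.6. Hr51 (unfulfilled), which is needed for the remodeling of mushroom body neurons during metamorphosis and in clock neurons, had 1.55 (1.01 and 2.09). Tll, which acts at the ends of the embryo and in neural progenitors of the brain and optic lobe, had 0.927 (0.541 and 1.31), so its bounds lie on both sides of FPKM 1. The FPKM of tll was 0.117 times that of svp (95% interval 0.0722 to 0.180, exact binomial on 23 and 199 effective reads, not covering variation between animals).

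Hr83, a relative of the vertebrate photoreceptor-specific receptor, had no read. With 0 reads counted, up to 3 are still possible, which over its 837 bp of annotated exon comes to an FPKM of up to 0.316. That conversion used the ratio of reads to FPKM in 337 genes of 1 annotated transcript and a length within 20% of that of Hr83. The limit lies above the value of Hr38 (0.280), so which of the pair is lower was not detectable at this depth. Svp lies on 3R from 8084459 to 8128507, tll on 3R from 26678037 to 26680122, Hr83 on 3R from 2174965 to 2176234 and Hr51 on 2R from 11219106 to 11226825, all on the plus strand. Svp has 5 annotated transcripts and covers 44049 bp, of which exons take 12.7%. In tll, with 1 transcript of 2 exons, exons take 94.2% of 2086 bp.

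The lists tied to these receptors were expressed unevenly. Of 18 measured genes of neural progenitors and of their timing, 13 reached FPKM 1, and the median was 3.19. The RNA-binding protein gene Syp at 113.0 and brat, a tumor suppressor of neural progenitors, at 32.2 stood highest. The early timing factor hb was at 0 and erm, of intermediate progenitors, at 0.440. The progenitor markers dpn at 3.09 and ase at 4.76, picked with their values known, exceeded tll in FPKM, and their bounds did not overlap those of tll. By contrast, wor at 1.42 (0.992 and 1.85) and mira at 1.10 (0.741 and 1.46), also picked with their values known, had bounds that overlapped those of tll. The genes of this list thus stood both above and below tll. Of 10 genes of photoreceptor fate 6 reached FPKM 1, and the median was 1.45. The EGF receptor ligand gene spi led at 182.6, followed by the ubiquitin ligase gene sina at 16.9, while ro was at 0.413 and boss at 0.279. Svp stood above 8 of these 10 genes. Of 16 mushroom body and clock genes 12 reached FPKM 1, and the median was 4.64. Levels ran from Fas2 at 28.8 and trio at 25.1 to the neuropeptide receptor gene Pdfr at 0.534 and the clock gene per at 0.0970. Hr51 stood above 4 of these 16 genes. Beside the 74.5% of all genes at FPKM 1 or more, the share was 72.2% in the progenitor list and 75% in the mushroom body and clock list. It was 60% in the photoreceptor list, where 10 genes are too few to set it apart from the share of all genes. At FPKM 0.1 or more, all 10 photoreceptor genes were counted, against 86.8% of all genes.

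The knirps pair was expressed at a low level. Kni had an FPKM of 2.31 (bounds 1.73 and 2.88) from 64 effective reads, and knrl had 1.33 (1.06 and 1.61) from 94. The FPKM of knrl was 0.577 times that of kni (95% interval 0.415 to 0.805, exact binomial on effective reads), and the bounds did not overlap. This ratio depends on the gene length that Cufflinks used. From reads and FPKM, the length behind the value of knrl came to 4.90 kb, whereas its annotated transcripts measure 2.925 and 3.909 kb. For kni it came to 2.06 kb, between its transcripts of 1.911 and 2.1 kb. Per kilobase of annotated exon the ratio of knrl to kni was 0.832 with an interval of 0.599 to 1.16, which holds 1. A lower level of knrl than of kni therefore rests on the deposited lengths. Eg (eagle), the remaining member of the family, which specifies serotonin neurons, had 0.759 (0.240 and 1.28), or 0.329 times the FPKM of kni (0.144 to 0.664) and 0.570 times that of knrl (0.253 to 1.13).

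Both genes lie on the minus strand of 3L, knrl from 20590241 to 20613759 and kni from 20685430 to 20688478, with 71.7 kb between them. The only gene listed between them, CG13251, had an FPKM of 0.0550 (0 and 0.119). On the outer sides the nearest genes were Rcd2, 56.7 kb from knrl at 14.5, and cmpy, 17.5 kb from kni at 2.49. Among the 5 genes on each side of kni the median was 1.83, and among those of knrl it was 2.40, both below the 6.90 of all genes. Both sets share most of their genes and each holds the other member of the pair, so these medians are not separate observations. H3K27me3, the mark that the study mapped in these species, was not analysed here.

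**Figure D3:**
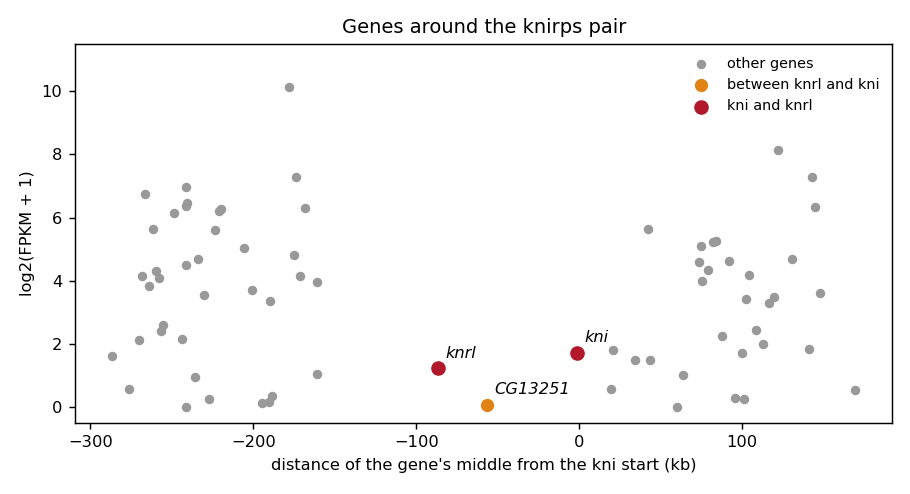
Levels as log2(FPKM + 1) of the 72 listed genes within 200 kb of the knirps pair, by the distance in kb of the middle of each gene from the start of kni. Red points are kni and knrl, the orange point is CG13251 between them and gray points are the other genes. CG13251 is the only point between knrl and kni.

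Of 13 measured genes that work with kni and knrl in tracheae and wing veins, 12 reached FPKM 1, against 74.5% of all genes, and 3 reached FPKM 5, against 55.5%. Their median was 2.10, against 6.90 over all genes. The zinc finger gene ab at 10.2 and the vein repressor gene net at 7.11 stood highest, and the FGF ligand gene bnl at 1.10 and rib at 0.213 lowest. The spalt genes salm at 1.99 and salr at 1.75, which set the position of the kni vein stripe in the wing and were picked with their values known, had bounds that overlapped those of kni. Of 9 measured partners of kni and tll in segmentation of the embryo 3 reached FPKM 1, a share of 33.3% beside the 74.5% of all genes, and the median was 0.166. Kr, which keeps later roles in other tissues, led at 22.5 and cad followed at 3.19, while hkb, eve and hb were at 0, where up to 3 reads each are still possible.

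Ordered by level, most neighbors could not be told apart beyond the error of their effective reads. Of the 8 pairs of neighbors with a ratio, 3 had an interval that did not hold 1, and the same 3 had Cufflinks bounds that did not overlap. ERR stood 1.58 times above Hr96 (95% interval 1.35 to 1.84). Hr96, Hnf4 and svp formed a block, with ratios of 1.03 (0.856 to 1.24) and 1.04 (0.844 to 1.28). A step of 3.45 (2.59 to 4.65) separated svp from kni. Below it kni stood at 1.49 times Hr51 (0.962 to 2.34), Hr51 at 1.17 times knrl (0.760 to 1.75) and knrl at 1.44 times tll (0.902 to 2.37), none of which was resolved between neighbors. Tll stood 3.32 times above Hr38 (1.78 to 6.19). These intervals rest on 23 to 347 effective reads and leave out any variation between animals. They also take the deposited FPKM as given. The length behind the value was 4.90 kb for knrl, with transcripts of 2.925 and 3.909 kb, and 1.60 kb for Hr51, with 1 of 2.089 kb. The order of Hr51, knrl and tll, and whether they can be told apart, therefore depends on the deposited lengths. Ratios per kilobase of annotated exon were not computed for these neighbors.

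Set against the receptors of the ecdysone cascade, the 10 genes stood lower as a group, though the ranges overlapped. Their median FPKM was 1.93, against 12.9 for the 9 ecdysone cascade receptors. Of those 9, 8 were at FPKM 1 or more, against 74.5% of all genes, and 7 at FPKM 5 or more, against 55.5%. The difference of the median log2(FPKM + 1), receptors outside minus receptors of the cascade, was -2.26 (-2.71 to -1.84 from the bounds). Among receptors at FPKM 1 or more alone it was -0.77, so the size of the difference depends on the low members. The 10 genes made up 23.4% of the summed FPKM of all 21 nuclear receptors, the cascade 76.2% and dsf and eg the rest.

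The order of single genes shows the overlap. Hr46, the early-late receptor also called Hr3, stood highest at 50.8, and Eip78C, Hr39 and Eip75B also stood above ERR, which was the fifth of the 21. Hr78, of the cascade, followed at 12.9 (11.4 and 14.5), with bounds that overlapped those of ERR. Hr96, Hnf4 and svp stood next to usp, the partner of the ecdysone receptor and the fly RXR, at 8.76 (7.77 and 9.75). Svp and Hr38 can both pair with usp in flies. The FPKM of svp was 0.908 times that of usp (95% interval 0.757 to 1.09), whereas that of Hr38 was 0.0319 times that of usp (0.0199 to 0.0488). Hr96, Hnf4 and svp also stood above EcR at 4.61 and Hr4 at 5.67, whose bounds did not overlap theirs. At the low end ftz-f1, which is known for a later pulse in the prepupa, was at 0.560, between tll and Hr38. Dsf, a receptor of neurons for sexual behavior, was at 0.0558, from 1.48 effective reads.

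**Figure D4:**
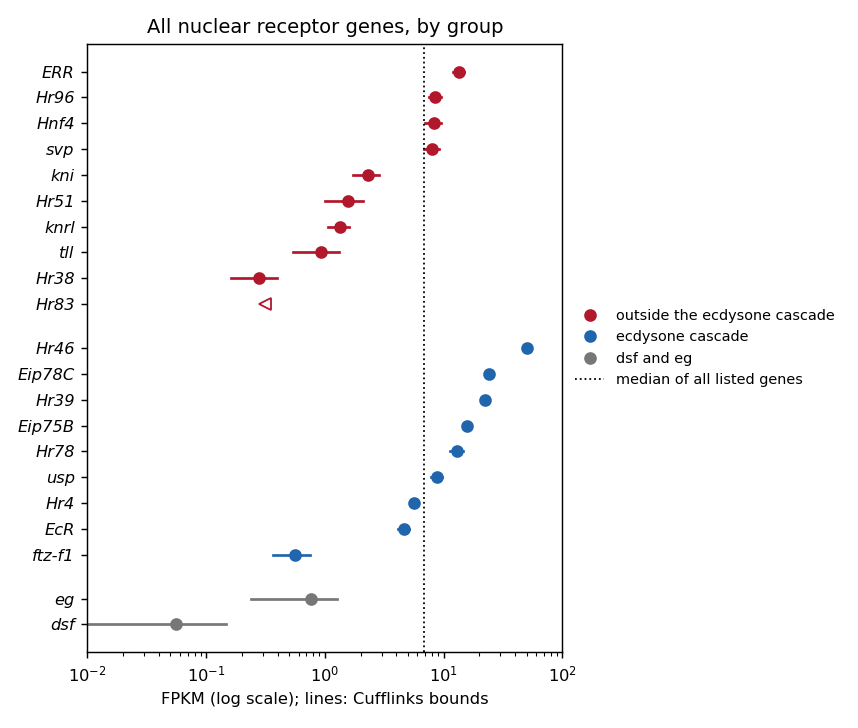
FPKM of all 21 nuclear receptor genes on a log axis in the D. melanogaster library, the 10 receptors outside the ecdysone cascade on top, the 9 of the cascade below them and dsf and eg at the bottom. Points are FPKM, lines the Cufflinks bounds (that of dsf runs down to 0, off the axis), the triangle of Hr83 the limit of 0.316 and the dotted line the median of 6.90 over all genes. ERR at 13.4 lies right of the line and below 4 cascade receptors.

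Nuclear receptors act through shared coactivators and corepressors. Of 12 measured cofactor genes 12 reached FPKM 1, against 74.5% of all genes, and the median was 8.81, at percentile 54.4 of all genes. CSN2 (alien), a corepressor and signalosome subunit, was highest at 115.9 and CtBP followed at 48.0, while bon was at 3.28 and trr, a histone methyltransferase that acts with EcR, at 1.497. Atro (Atrophin), which binds tll and other receptors as a corepressor, was at 9.22 (8.61 and 9.84) and was singled out after its value was seen.

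The genes next to the receptors showed no common level. For svp the nearest listed genes were CG3942 at 8.60 and CG4066 at 0.0680, and the median of the 5 genes on each side was 0.127. For Hnf4 the nearest were Trs23 at 52.1 and raw at 48.2, but the median of the 10 genes around was 0.233. Around Hr38, one of the lowest members, the median was 15.4, with Cen at 43.9 and CG9316 at 12.6 on either side, and 10 of 10 genes stood above it. Around Hr96 the median was 19.8, with EMC6 at 166.2 and Smg6 at 29.6. ERR lies 2.85 kb from mthl7 at 0.0592 and 0.324 kb from Atg18a at 31.7. Hr51 lies between CG8160 at 2.44 and unc-5 at 3.55, and Hr83 between CG18048 at 6.999 and FBgn0014001 at 18.3. Tll lies 10.3 kb from CG15544 at 4.06 and 13.1 kb from Cpr100A at 0.377. For Hr38, Hr51 and Hr83 each of the 10 genes around stood above the receptor, while for svp 2 of 10 did. These counts depend on the level of the receptor itself and do not describe the neighborhood alone. Among all listed genes Hr38 stood at percentile 17.1, Hr51 at 29.0 and svp at 52.6, and Hr83 was at 0, where any gene with a read stands above it.

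The loci of 4 receptors overlap other genes, and each listed gene that overlaps them is named. The sources used here do not say whether the reads kept their strand, so reads from shared exon sequence cannot be assigned by strand. In the BDGP6 annotation Hr38 shares 168 bp of exon with CG2617, which runs on the other strand and had an FPKM of 27.4. That is 168 of the 7704 bp of Hr38 exons, beside a gene far above it in level, and how many of the 23 effective reads of Hr38 fell there was not tested. The level of Hr38 and its ratios to tll and usp carry this limit, even though the shared stretch is short. ERR shares 9 bp with Uxs at 10.6. Svp shares 115 bp with CG44037 at 2.22, on the same strand. A further 4 genes lie inside svp with 0 bp of shared exon, CG17738 at 181.8, lncRNA:CR44039 at 0.427 and CG44038 and Sfp87B at 0. CatB at 38.0 lies within Hnf4 on the other strand and shares 0 bp of exon.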

How the data were processed

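Total RNA of whole white prepupae was isolated with Trizol and sequenced by the authors on an Illumina instrument, with 1 library per species. Per the submitters' processing notes, TopHat, Bowtie, SAMtools and Cufflinks were used with dm3, and no version is given in the sources used here. For each gene the authors deposited FPKM with lower and upper bounds and a status. Start positions in the file count from 0 and are printed here counted from 1.

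Genes were found by FlyBase identifier, and lists by symbol. Listed genes that were not matched were left out, so their levels are not known here. They were Smr, PyK, CG7461, CG9527, CG5009, GlyS, GlyP, Imp, btl, nos, h and wupA. The members and lists were chosen with earlier results of these data known. Named were the 21 nuclear receptors, the 2 highest and 2 lowest genes of each list and the nearest listed gene on each side of each receptor. Genes that overlap a receptor were added after their values were seen, and any other gene is marked as singled out. A gene was counted as expressed at FPKM 1 or more, and the minimum was also set to 0.1 and to 5. Effective reads were computed as the square of FPKM over its standard error, the bounds lying 2 standard errors away. Ratios of FPKM have 95% exact (Clopper-Pearson) intervals on these reads, for 8 neighboring and 6 further pairs. The neighboring pairs and the ratio of knrl to kni were planned, and the other further pairs were picked with their values known. The intervals cover the error within the bounds and not variation between animals. An alternative counted as moved where a count changed by more than 1.5 times, or another value left the range given by the bounds or interval of the reported one. Exons and strands came from Ensembl release 115 (BDGP6), whose coordinates were not mixed with those of dm3. Calculations used Python 3.11.15, numpy 2.4.6, pandas 2.3.3 and scipy 1.17.1 and were tested on simulated data, and figures were drawn with matplotlib 3.10.9.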

Additional observations from a re-analysis of the deposited data

How the results depend on the processing

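Of 33 alternatives, 20 kept a count within 1.5 times, or another value within its bounds, and 13 did not. At a minimum of FPKM 5 the receptors counted as expressed numbered 4 in place of 7, and the pathway genes 70 in place of 107 of 128. Over receptors at FPKM 1 or more alone, the median was 7.96 in place of 1.93 and the difference from the ecdysone cascade receptors -0.77 in place of -2.26 on the log2 scale. Other pseudocounts and the addition of dsf and eg gave -2.71 to -2.49. Per kilobase of annotated exon the ratio of knrl to kni was 0.832 in place of 0.577. Of the separate lists, 6 moved at a minimum of FPKM 5 and 2 at 0.1. The comparison of bounds in the order of levels was chosen after seeing the data. All 10 receptors have the status OK, so that filter removed nothing. No paired analysis was possible because each species has 1 library, and variation between animals is unknown.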

Other observations

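Effective reads came out whole, within 0.05 of an integer, in 94.97% of 4632 genes with 1 annotated transcript and under 300 reads. The share was 46.6% of 2113 genes with 2 transcripts, 25.2% of 659 with 3 and 13.3% of 722 with 4 or more. Among the receptors, 5 of the 9 with reads were whole: Hr96 (327), knrl (94), kni (64), Hr51 (33) and tll (23). ERR, Hnf4, svp and Hr38 were not. These 4 have 2 or more annotated transcripts, as do kni and knrl. The length behind the value was shorter than the shortest annotated transcript for Hnf4 (1.45 against 2.739 kb), svp (1.68 against 2.876 kb), Hr38 (5.41 against 7.044 kb), Hr51 (1.60 against 2.089 kb), Hr96 (2.77 against 2.834 kb) and tll (1.89 against 1.965 kb). This value is computed from effective reads. For Hnf4, svp and Hr38, whose effective reads were not whole, it need not be a real length. The spans of Hnf4 and Hr51 also differ between the deposited coordinates and BDGP6, by 628 and 340 bp. For Hr96 and tll the gaps are small, and the conversion came from genes of a length within 20% of theirs. The cause was not tested.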
